A study of Mus musculus with 2 samples.

Results

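The genes described here are the receptors of the colony-stimulating factors (CSFs) and the CSF1 ligand gene. The set has 6 members, chosen by name among the 32285 genes of each count table: 5 receptor genes, Csf1r, Csf3r, Csf2ra, Csf2rb and Csf2rb2, and 1 ligand gene, Csf1. They were followed in microglia sorted from mouse lumbar spinal cord and sequenced by droplet scRNA-Seq, which reads RNA from its 3′ end and counts each captured molecule once by its unique molecular identifier (UMI). There was 1 library from control mice, called WT in the labels and given as Eif4ebp1 fl/fl in a legend of the study, and 1 library from 4E-BP1–cKO mice (Eif4ebp1 fl/fl:TMEM119CreERT2). In the 4E-BP1–cKO mice, Cre recombinase under the microglial Tmem119 promoter deletes Eif4ebp1, which encodes the translational repressor 4E-BP1. The methods give 4-OHT, which activates this Cre, as injected daily from postnatal day 4 to 9. They do not say separately whether the control mice received it. Mice were male and 8 to 10 weeks old, and cells passed a gate for CD45lo, CD11bhi and CX3CR1hi. How many mice went into each library is not stated. With 1 library per genotype there is no test between genotypes, and no p-value is given. Intervals are exact 95% intervals (Poisson for UMI sums, Clopper-Pearson for shares of cells, conditional for ratios) and cover counting error only.

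CSF1R is the receptor tyrosine kinase on which microglia depend for survival, and it is bound by CSF1 and by IL-34. CSF2RA and CSF2RB are the ligand-binding and signaling chains of the GM-CSF receptor, and CSF2RB also serves the IL-3 and IL-5 receptors. Mice have a near copy of the latter gene, Csf2rb2, whose product pairs with the IL-3 receptor chain. CSF3R is the receptor for G-CSF and is best known from neutrophils. After nerve injury, CSF1 made by sensory neurons acts on spinal microglia through CSF1R, which made this receptor family a point of interest in the spinal cord.

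A barcode was kept as a cell where it had over 300 detected genes and mitochondrial UMIs made up less than 5%. This gave 1147 control cells (4803562 UMIs in all, median 3053) and 445 4E-BP1–cKO cells (1734332 UMIs, median 2776). The libraries shared 0 cell barcodes. Eif4ebp1 itself had 95 UMIs in the control and 51 in 4E-BP1–cKO cells. Per 1000000 UMIs of the kept cells this was 19.8 and 29.4, but counts of 3′ ends do not check the deletion. At least 3 of 9 microglial markers were detected in 91.4% of control and 85.8% of 4E-BP1–cKO cells. Of these markers, Tmem119 was at 433 CPM (UMIs per 1000000 UMIs of the kept cells) in the control library and 142 CPM in the 4E-BP1–cKO library. The median share of UMIs on ribosomal protein genes was 2.22% in control cells and 3.53% in those of the 4E-BP1–cKO library.

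Csf2rb and Csf2rb2 lie side by side on chromosome 15 and are close paralogs, so it matters whether reads can tell them apart. Their longest coding transcripts in GENCODE vM39 (GRCm39) were 90.9% identical over 4679 aligned bases, and the longest run of identical bases was 242. The end of the Csf2rb2 coding sequence is shown with the stretch of Csf2rb that matches it best. Capitals mark the 7 of 90 bases that differ, and both stretches are coding.
Csf2rb: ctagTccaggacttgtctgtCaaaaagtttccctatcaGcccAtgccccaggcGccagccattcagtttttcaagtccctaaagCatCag
Csf2rb2: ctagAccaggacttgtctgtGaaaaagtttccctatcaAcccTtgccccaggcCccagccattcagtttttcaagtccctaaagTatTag
The Csf2rb2 stretch ends in its stop codon, whereas the Csf2rb coding sequence goes on for another 54 bases. The 3′ ends of the transcripts were less alike than the whole. Identity over their last 600 bases, which 3′ libraries mostly read, was 79.2%, and 0 of the 511 windows of 90 bases there were found in the other transcript. Over the whole of Csf2rb, 8.19% of such windows were shared. The counts of both genes were therefore treated as separable at the 3′ end, but any molecule read further upstream could have been dropped as ambiguous.

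Csf1r (ENSMUSG00000024621, GRCm38 chr18:61105572-61131139) was by far the most abundant member. It had 6979 UMIs in control cells, or 1453 CPM (1419 to 1487), and 2373 UMIs in 4E-BP1–cKO cells, or 1368 CPM (1314 to 1424). Csf1r overlaps Hmgxb3, a gene on the other strand, and Mir6983, which together had 433 UMIs over both libraries. This placed it 60th of the 19703 genes detected in the control library and 68th of 16181 in the 4E-BP1–cKO library. Csf3r (ENSMUSG00000028859, chr4:126023441-126044975) came next, at 403 CPM (385 to 422) in the control library and 348 CPM (321 to 377) in the 4E-BP1–cKO library.

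The ligand gene Csf1 (ENSMUSG00000014599, chr3:107741048-107760469) came after it. Its level was 160 CPM (149 to 172) in control cells, from 769 UMIs, and 183 CPM (163 to 204) in 4E-BP1–cKO cells, from 317 UMIs. The GM-CSF receptor chains and Csf2rb2 were low. Csf2ra (ENSMUSG00000059326, chr19:61217191-61228461) was at 62.0 CPM (55.2 to 69.5) and 60.5 CPM (49.5 to 73.3) in the control and 4E-BP1–cKO libraries. Csf2rb (ENSMUSG00000071713, chr15:78325800-78351001) was at 49.3 CPM (43.3 to 56.0) and 42.1 CPM (33.0 to 52.9). Csf2rb2 (ENSMUSG00000071714, chr15:78282507-78305721) was the lowest, with 84 UMIs or 17.5 CPM (13.9 to 21.7) and 33 UMIs or 19.0 CPM (13.1 to 26.7). The order Csf1r, Csf3r, Csf1, Csf2ra, Csf2rb, Csf2rb2 was the same in both libraries. The only neighbors whose intervals overlapped were Csf2ra and Csf2rb, in both libraries. Because a molecule is counted once whatever its length, no length correction was made, but genes can differ in how well their 3′ ends are captured.

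**Figure D1:**
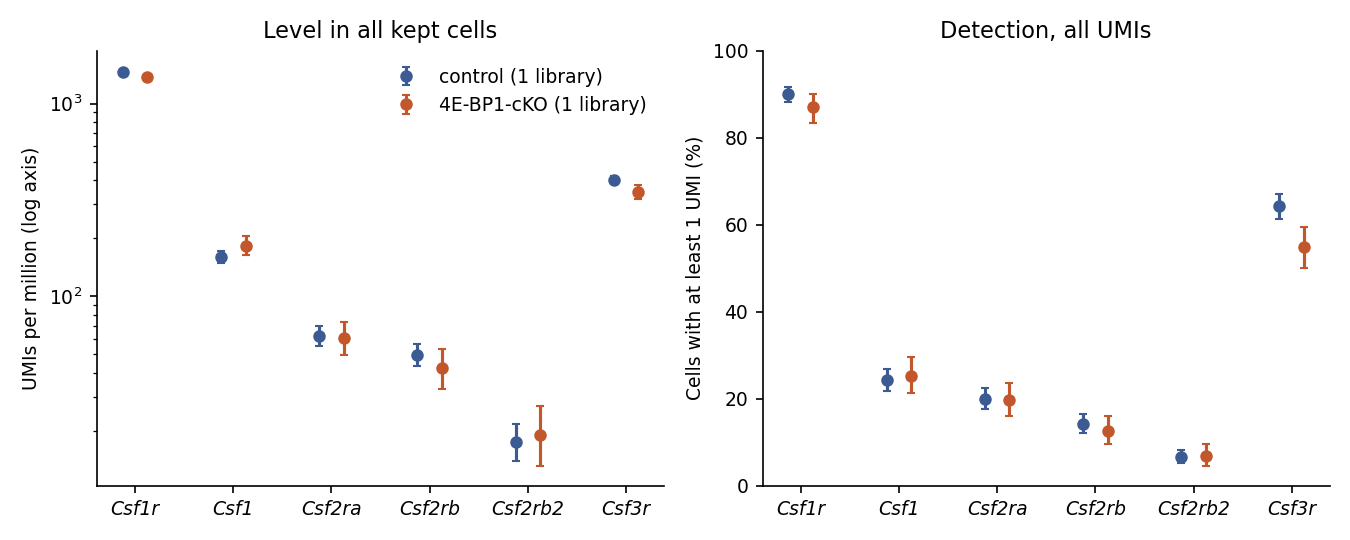
Level (UMIs per 1000000, log axis) and detection (percent of cells with at least 1 UMI) of the 6 members in the control and 4E-BP1–cKO libraries. Points are single libraries and bars are 95% counting intervals. Csf1r is highest in both libraries at 1453 and 1368 CPM, and Csf2rb2 is lowest at 17.5 and 19.0 CPM.

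Between the libraries, 0 of 6 members differed by 1.5-fold or more on log2(CPM + 1), the size used here as a threshold in the absence of a test. Of the 11784 genes with at least 20 UMIs over both libraries, 15.6% did. This background falls to 6.88% among genes with at least 100 UMIs, a minimum that every member passed. The 4E-BP1–cKO to control ratio was 0.942 (0.899 to 0.987) for Csf1r, 1.14 (0.999 to 1.30) for Csf1 and 0.976 (0.774 to 1.22) for Csf2ra. It was 0.853 (0.647 to 1.11) for Csf2rb and 1.09 (0.704 to 1.65) for Csf2rb2. The intervals of these ratios held 1 for Csf1, Csf2ra, Csf2rb and Csf2rb2, which does not show that the levels were alike.

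Csf3r had the lowest ratio among the 3 members above 100 CPM, 0.864 (0.787 to 0.947), a log2 difference of -0.21. Within like cells the difference varied in size and direction. Cells below 1500 UMIs and below 3% ribosomal share had 491 CPM in the control and 352 CPM in the 4E-BP1–cKO library. Those of 3000 to 6000 UMIs and 8% or more had 227 and 292 CPM. Averaged over 8 strata of cell depth and ribosomal share that held at least 20 cells of each library, the log2 difference was -0.06. Strata with more cells weighed more in this average, and opposite directions partly cancelled. The difference between the libraries stayed negative under every alternative run. The same average was -0.05 for Csf1r and 0.17 for Csf1, against -0.09 and 0.19 over all kept cells.

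Csf1r was detected in 90.1% of control cells (88.2 to 91.7%) and 87.0% of 4E-BP1–cKO cells (83.5 to 89.95%). Csf3r was found in 64.3% (61.4 to 67.0%) and 54.8% (50.1 to 59.5%) of these cells. The share for Csf1 was 24.2% (21.8 to 26.8%) and 25.2% (21.2 to 29.5%), and for Csf2ra 19.97% (17.7 to 22.4%) and 19.6% (16.0 to 23.5%). Csf2rb was detected in 14.2% (12.2 to 16.4%) and 12.6% (9.65 to 16.0%), and Csf2rb2 in 6.54% (5.18 to 8.13%) and 6.74% (4.59 to 9.48%). When every cell was thinned to 1000 UMIs, 1039 cells of the control library and 358 of the 4E-BP1–cKO library had enough, and 108 and 87 were left out. The shares were then 72.1 and 71.6% for Csf1r, 32.8 and 28.5% for Csf3r, 11.2 and 12.6% for Csf1, 6.51 and 6.75% for Csf2ra, 4.09 and 3.79% for Csf2rb and 1.68 and 1.84% for Csf2rb2. Before thinning, only the Csf3r intervals did not overlap between the libraries. The 4E-BP1–cKO cells were shallower, at a median of 2776 against 3053 UMIs. The share of all genes whose intervals did not overlap is not given here, so this has no background.

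Free RNA can put UMIs of a gene into cells that do not express it, and too few cells of other types were present to measure this for the members. Genes of other cell types were read in the same cells for comparison. Mbp, the myelin gene of oligodendrocytes, was detected in 10.2% of control cells and 14.8% of 4E-BP1–cKO cells, or 2.83 and 5.06% after thinning. Aqp4, of astrocytes, was found in 1.83 and 1.57%, and Snap25, of neurons, in 0.349 and 0.225%. Csf1r, Csf3r, Csf1 and Csf2ra lay above all 3 of these genes in both libraries, with and without thinning. Csf2rb lay above Mbp in the control library and below it in the 4E-BP1–cKO library, and Csf2rb2 lay below Mbp in both. Both genes lay above Aqp4 and Snap25 in both libraries. Aqp4 gave only 27 of the 502 UMIs of the 4 astrocyte markers in the control library. In the 4E-BP1–cKO library it gave 7 of 120. Detection of the other astrocyte markers is not given here, so the comparison does not cover them. Free RNA of different genes can spread to different extents, so the comparison with Mbp sets no level for Csf2rb or Csf2rb2. The part of free RNA in their detection was not tested.

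Csf3r is a neutrophil gene in blood, so neutrophil markers were read beside it. The 7 markers summed to 8 UMIs in the control and 10 in the 4E-BP1–cKO library, Ly6g and Retnlg were at 0 in both, and 0 cells carried 3 of them. Csf3r, by contrast, was found in 737 control and 244 4E-BP1–cKO cells. Of its UMIs, 1880 of 1937 in the control library and 584 of 604 in the 4E-BP1–cKO library were in cells with at least 3 microglial markers. Such cells made up 91.4 and 85.8% of all cells, and their share of all UMIs is not given here. These counts therefore do not set Csf3r apart from other genes. Markers of monocytes (22 and 3 UMIs over 5 genes) were also near 0, and 0 cells carried 3 of them. Dendritic cell markers summed to 114 and 54 UMIs over 6 genes, most of them from Zbtb46 (72 and 33), and 0 cells carried 3 of them. Border-associated macrophages, which express Csf1r as well, had 8 markers, and 3 of them were carried by 2 cells of the control library and 1 cell of the 4E-BP1–cKO library.

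Csf1 was the member spread most unevenly over the cells. It was detected in 24.2% of control cells, whereas the 564 genes with 80 to 125% of its UMIs were detected in a median of 35.3%, and only 8 of them in fewer cells than Csf1. In the 4E-BP1–cKO library the median of 493 such genes was 36.6% against 25.2% for Csf1, and 9 were in fewer cells. The 44 control cells with at least 5 Csf1 UMIs held 49.0% of all Csf1 UMIs, and the highest cell had 19. In the 4E-BP1–cKO library, 21 cells held 48.9% of them, and the highest had 16.

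The receptor genes did not share this pattern. Csf1r was detected in more cells than 41 of the 44 genes with like totals in the control library and 60 of 61 in the 4E-BP1–cKO library. Csf3r was in more cells than 235 of 269 and 205 of 277 such genes, and Csf2ra than 785 of 1034 and 887 of 1063. Csf2rb lay near the middle or below it, above 395 of 1148 and 566 of 1240 genes. Among cells with at least 3000 UMIs, the median cell had 1.35 Csf1r UMIs per 1000 in the control library (10th to 90th percentile, 0.620 to 2.33) and 1.31 in the 4E-BP1–cKO library (0.582 to 2.29).

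**Figure D2:**
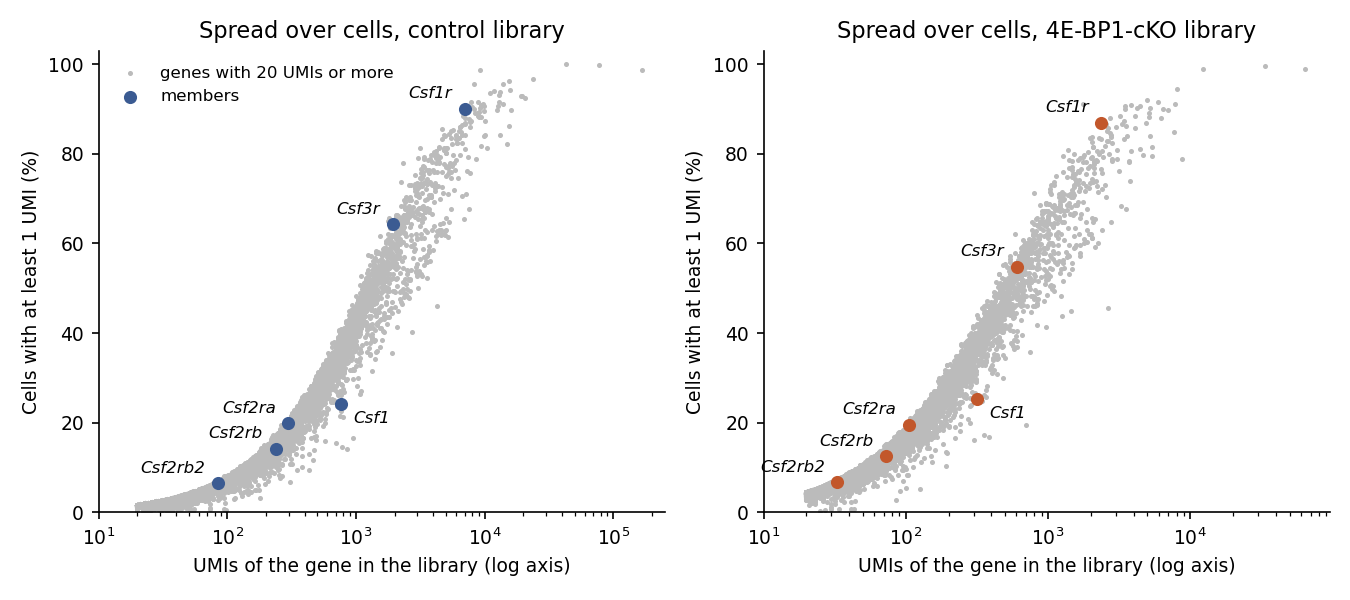
Percent of cells with at least 1 UMI against the total UMIs of a gene (log axis), for every gene with at least 20 UMIs in each library (grey) and for the 6 members (colored). Csf1 lies under the band of genes with like totals, at 24.2% of control and 25.2% of 4E-BP1–cKO cells, and Csf1r lies near its upper edge.

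The second question was how the members depend on the depth of a cell. Detection of Csf1r rose from 67.9% of control cells below 1500 UMIs to 89.2, 98.5 and 99.6% in cells of 1500 to 3000, 3000 to 6000 and at least 6000 UMIs. In the 4E-BP1–cKO library it rose through 65.1, 88.6 and 99.0 to 100%. Its level over all kept cells hardly moved. The 4 depth classes stood at 1511, 1378, 1401 and 1499.9 CPM in the control library and at 1394, 1384, 1330.1 and 1378 CPM in the 4E-BP1–cKO library. Cells of at least 3000 UMIs had 1.04 times the Csf1r level of shallower cells (0.980 to 1.10) in the control library and 0.983 times (0.890 to 1.09) in the 4E-BP1–cKO library. Split by ribosomal share, the 4E-BP1–cKO log2 difference was -0.42 in cells below 3% and 0.24 in cells of 3% or more. In the control library it was -0.07 and -0.12.

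The cells without a Csf1r UMI were mostly shallow. There were 114 in the control library at a median of 1272 UMIs, of which 6 had at least 3000, and 58 in the 4E-BP1–cKO library at a median of 804 UMIs, of which 1 had at least 3000. Of these cells, 79 and 38 carried at least 3 microglial markers. The summed level of the 9 markers was lower in them, at 4918 and 5671 CPM, than in cells with a Csf1r UMI, at 9156 and 8873 CPM. The single deep 4E-BP1–cKO cell had 24.7% ribosomal UMIs and carried 3 markers of another cell type. Of the 6 deep control cells, 5 carried 3 microglial markers and 1 carried 3 markers of another type.

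Csf3r was lower in deep cells. In the control library it stood at 468, 468, 462 and 345 CPM through the depth classes, and in the 4E-BP1–cKO library at 393, 444, 382 and 301 CPM. The ratio of deep to shallow cells, split at 3000 UMIs, was 0.826 (0.743 to 0.919) and 0.762 (0.634 to 0.920). The drop was thus in the deepest class of both libraries. By ribosomal share, described further on, the log2 difference between deep and shallow cells varied. It was 0.19 in control cells below 3% ribosomal UMIs and -0.24 in those of 3% or more, against -0.28 over all control cells. It was -0.22 and -0.08 in the 4E-BP1–cKO library, against -0.39. Csf1 had ratios of 0.886 (0.747 to 1.06) and 0.879 (0.675 to 1.16), and its detection rose from 10.9 to 41.4% of control cells and from 11.1 to 46.2% of 4E-BP1–cKO cells. Its depth difference turned with the ribosomal share, from -0.56 below 3% to 0.58 in control cells of 3% or more and from -1.09 to 0.30 in the 4E-BP1–cKO library.

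The GM-CSF receptor chains and Csf2rb2 gave few UMIs in shallow cells. Csf2ra stood at 85.5, 69.7, 60.7 and 58.3 CPM by depth in the control library, with overlapping intervals, and at 62.5, 98.3, 60.2 and 50.2 CPM in the 4E-BP1–cKO library. Csf2rb went opposite ways in the libraries. Its deep to shallow ratio was 1.59 (1.10 to 2.37) in the control library, from 204 and 33 UMIs, and 0.582 (0.349 to 0.999) in the 4E-BP1–cKO library, from 50 and 23 UMIs. Csf2rb2 had ratios of 0.643 (0.395 to 1.08) and 0.714 (0.320 to 1.75). Those of Csf2ra were 0.808 (0.617 to 1.07) and 0.611 (0.398 to 0.957), the latter from 73 and 32 UMIs. In this contrast 2 of 6 members passed 1.5-fold in the control library, against 30.3% of all genes tested, and 2 of 6 in the 4E-BP1–cKO library, against 33.4%. They were Csf2rb and Csf2rb2 in the control library and Csf2ra and Csf2rb in the 4E-BP1–cKO library. Both counts were near the background.

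**Figure D3:**
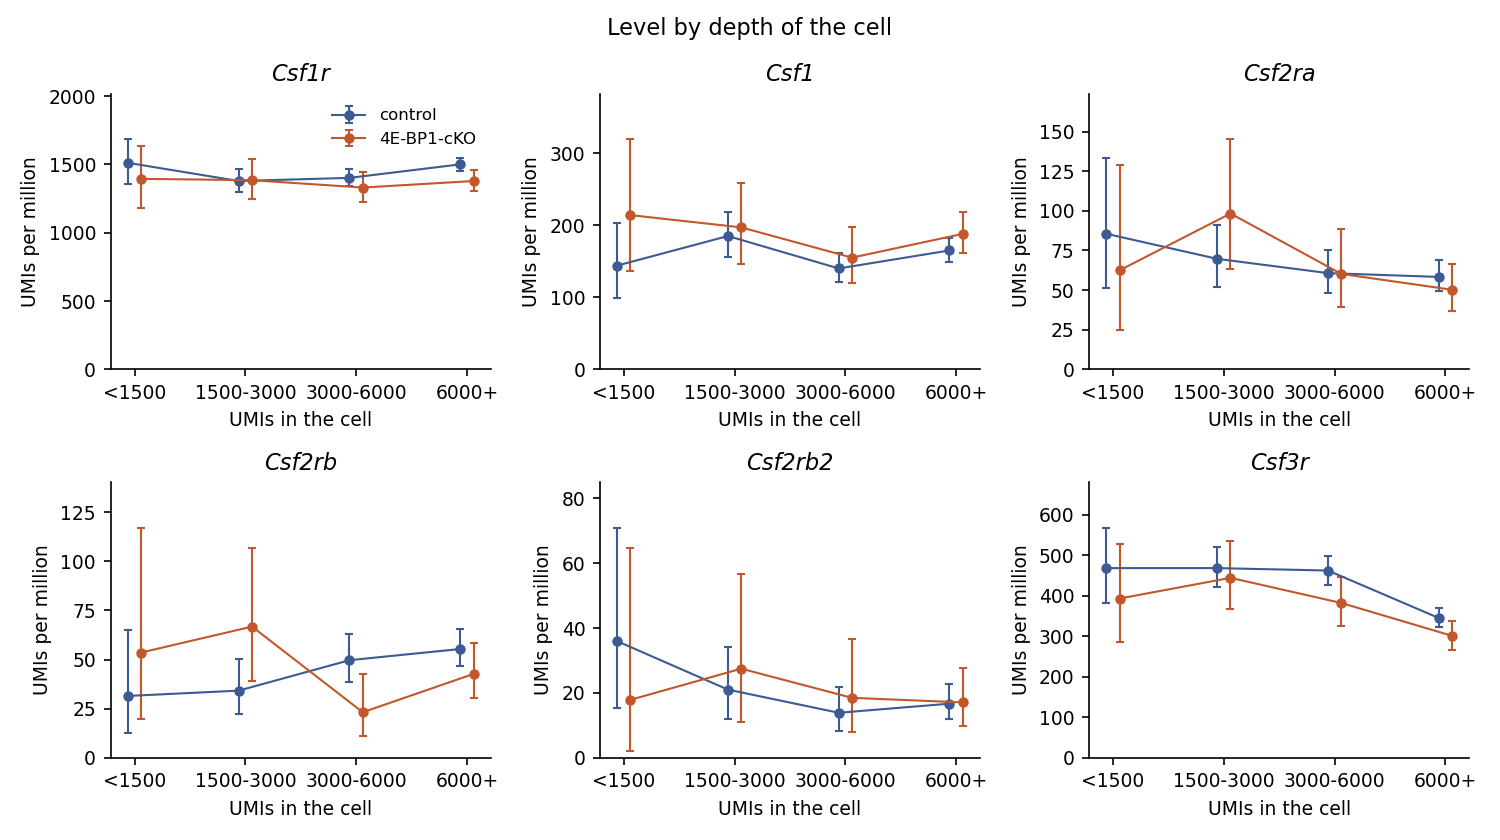
Level of the 6 members (UMIs per 1000000, linear axis from 0) in cells of 4 depth classes, by total UMIs per cell, in the control and 4E-BP1–cKO libraries. Bars are 95% counting intervals. Csf1r is near level, from 1378 to 1511 CPM in the control library, while Csf3r is lowest in the deepest cells of both libraries, at 345 and 301 CPM.

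The third question was how the members depend on how much of a cell's UMIs fall on ribosomal protein genes, which is low in most of these cells and high in some. Here Csf3r moved most plainly. It was at 525 CPM (493 to 559) in control cells below 3% ribosomal UMIs, 375 CPM (348 to 404) in cells of 3 to 8% and 236 CPM (207 to 267) in cells of 8% or more. In the 4E-BP1–cKO library it was at 436 CPM (383 to 493), 346 CPM (303 to 392) and 250 CPM (207 to 298). The control intervals did not overlap, and in the 4E-BP1–cKO library only those of the lower 2 classes did.

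Over all kept cells, those of 3% or more ribosomal UMIs were deeper, so the same values were read within depth groups. Depth still varied inside these groups. In control cells below 3000 UMIs the median depth was 1853, 788 and 1891 UMIs through the ribosomal classes. In deeper control cells it was 3896, 6942 and 7670.5 UMIs. In the 4E-BP1–cKO library it was 1549, 768 and 2026 UMIs, and 4349, 6801 and 6718 UMIs. Among cells of at least 3000 UMIs, Csf3r stood at 556, 371 and 235 CPM through the ribosomal classes of the control library and at 404, 342 and 248 CPM in the 4E-BP1–cKO library. Below 3000 UMIs it stood at 486, 425 and 252 CPM and at 472, 386 and 261 CPM. The order was the same in all 4 groups of cells, although only 11 and 14 Csf3r UMIs came from shallow cells of 8% or more. It did not hold in every finer depth class. In 4E-BP1–cKO cells below 1500 UMIs, Csf3r was at 352 CPM below 3% and 538 CPM at 3 to 8%. These levels rest on 25 and 18 UMIs. Thinned to 1000 UMIs, its detection went from 36.8 to 29.9 and 20.2% of control cells and from 32.3 to 27.8 and 22.0% of 4E-BP1–cKO cells.

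Cells of 3% or more had 0.620 times (0.567 to 0.678) the Csf3r level of cells below 3% in the control library and 0.703 times (0.596 to 0.830) in the 4E-BP1–cKO library, where it did not pass 1.5-fold. With ribosomal and mitochondrial genes left out of the total, the log2 differences of -0.69 and -0.51 became -0.60 and -0.40. The call turned in some alternatives. With the boundary at 6% the 4E-BP1–cKO difference was -0.69 and past the threshold, and in control cells below 3000 UMIs it was -0.35 and under it. Many genes moved in this contrast. Of all genes tested, 20.6% were lower by 1.5-fold or more in the control and 25.6% in the 4E-BP1–cKO library. In either direction it was 40.8 and 49.6%, against 1 of 6 members in the control library (Csf3r, lower) and 2 of 6 in the 4E-BP1–cKO library. Of these 2, Csf2rb was lower, with a ratio of 0.654 (0.402 to 1.08). Csf2rb2 was higher, at 1.79 (0.758 to 4.90), with only 7 UMIs in cells below 3%. Both intervals held 1.

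Csf1r went the other way by a small margin. It rose through 1321, 1458 and 1679.9 CPM in the control library and through 1255, 1398 and 1458 CPM in the 4E-BP1–cKO library. The ratio of cells of 3% or more to cells below was 1.16 (1.11 to 1.22) and 1.13 (1.04 to 1.24). In 4E-BP1–cKO cells below 3000 UMIs the direction turned, with 1454 CPM below 3% and 1196 and 1248 CPM in the classes above.

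Csf1 stood at 155, 158 and 173 CPM in the control library, with overlapping intervals, and at 156, 222 and 158 CPM in the 4E-BP1–cKO library. Within depth it split. In cells of at least 3000 UMIs it was at 128, 159 and 180 CPM in the control library and at 102, 223 and 164 CPM in the 4E-BP1–cKO library, whereas in shallower control cells it was at 190, 142 and 22.9 CPM, the last from 1 UMI. Csf2ra did not move with the ribosomal share beyond its intervals, at 60.6, 63.7 and 61.5 CPM and at 67.3, 50.8 and 66.5 CPM. Csf2rb was at 41.3, 56.4 and 51.0 CPM in the control library and at 54.9, 39.2 and 31.2 CPM in the 4E-BP1–cKO library, also with overlapping intervals.

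**Figure D4:**
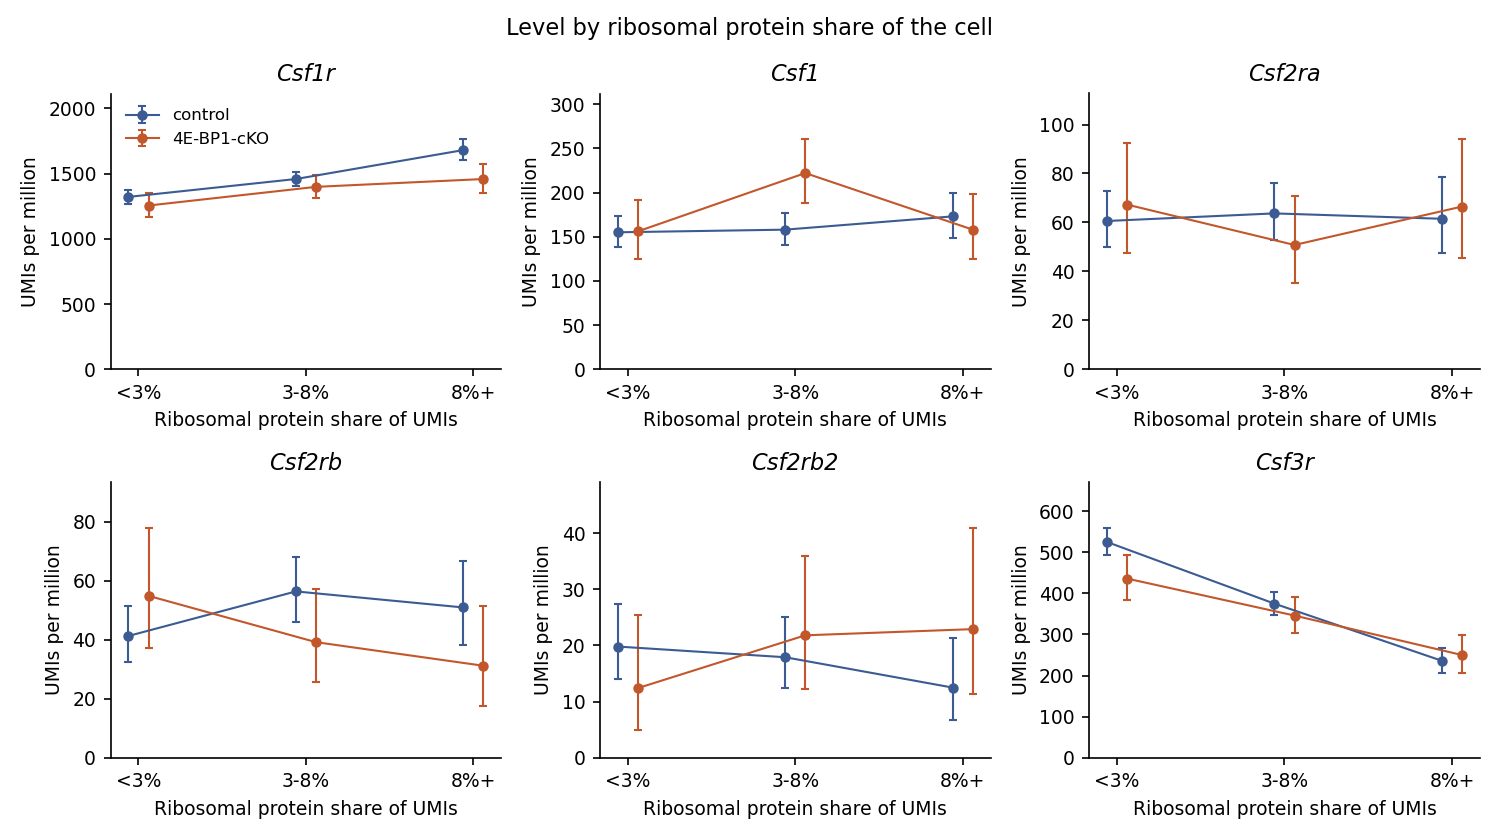
Level of the 6 members (UMIs per 1000000, linear axis from 0) in cells of 3 classes of ribosomal protein share, in the control and 4E-BP1–cKO libraries. Bars are 95% counting intervals. Csf3r is lower in each higher class, from 525 to 236 CPM in the control library and from 436 to 250 CPM in the 4E-BP1–cKO library, while Csf1r is slightly higher.

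**Figure D5:**
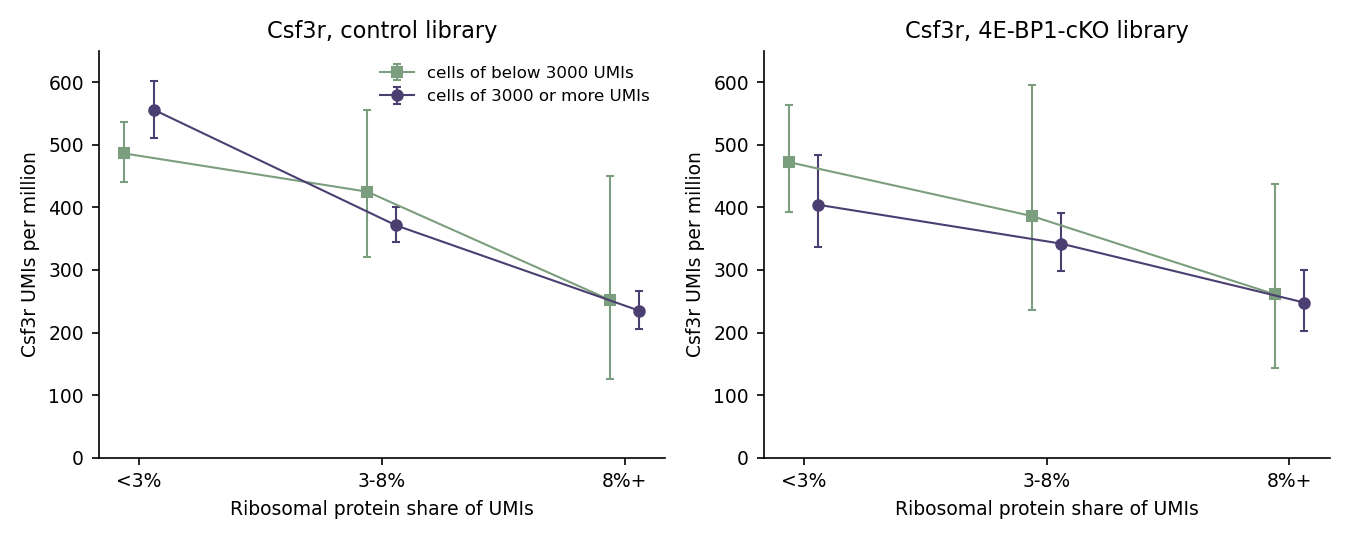
Level of Csf3r (UMIs per 1000000) by ribosomal protein share, separately for cells below 3000 UMIs (squares) and of at least 3000 UMIs (circles), in each library. Bars are 95% counting intervals. The level is lower in each higher class at both depths, with 556, 371 and 235 CPM in the deeper control cells and 404, 342 and 248 CPM in the deeper 4E-BP1–cKO cells.

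Enzymatic dissociation of tissue can induce immediate early genes, so the members were also read by the share of UMIs on 17 such genes, in tertiles of each library. The bounds were 1.28 and 2.21% in the control library and 1.67 and 2.82% in the 4E-BP1–cKO library. Tertiles of the same name thus differ in early-gene share between the libraries. Csf1 was higher in the highest tertile than in the lowest, at 181 against 127 CPM in the control library (ratio 1.43, 1.19 to 1.72) and 171 against 125 CPM in the 4E-BP1–cKO library (1.38, 0.988 to 1.94). The middle tertile lay between them in the control library, at 164 CPM (144 to 185), and above both in the 4E-BP1–cKO library, at 236 CPM (199 to 277), so the level did not rise steadily there. Csf1r hardly moved, with ratios of 1.05 (0.992 to 1.11) and 1.03 (0.930 to 1.15). Csf3r was at 410 and 387 CPM in the lowest and highest tertile of the control library (0.945, 0.846 to 1.06) and at 431 and 312 CPM in the 4E-BP1–cKO library (0.723, 0.591 to 0.885). Csf2ra had a ratio of 1.10 (0.824 to 1.48) in the control library and 1.75 (1.02 to 3.14) in the 4E-BP1–cKO library, where the lowest tertile gave 19 UMIs. The ribosomal share moved with the early genes, from a median of 1.59% in the lowest tertile to 4.75% in the highest tertile of the control cells and from 1.78 to 5.69% in 4E-BP1–cKO cells. Its part in these differences was not tested. In this contrast 0 of 6 members passed 1.5-fold in the control library, against 25.3% of the genes tested. In the 4E-BP1–cKO library 3 of 6 did, against 37.2%, each with at most 52 UMIs in a class. Csf2ra and Csf2rb2 (1.60, 0.587 to 5.04) were higher in the highest tertile, and Csf2rb (0.641, 0.353 to 1.16) was lower.

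Since the GM-CSF receptor needs both chains, cells with both transcripts were counted. In the control library 50 of the 229 cells with a Csf2ra UMI also had a Csf2rb UMI, or 21.8% (16.7 to 27.8%), against 12.3% (10.3 to 14.6%) of the cells without Csf2ra. Deeper cells show more of every gene. Within cells of at least 6000 UMIs the shares were 35.9% (26.1 to 46.5%) and 29.9% (23.0 to 37.5%), and the intervals overlapped in every depth class. In the 4E-BP1–cKO library 13 of 87 cells with Csf2ra had Csf2rb, or 14.9% (8.20 to 24.2%), against 12.01% (8.83 to 15.8%). An excess of cells with both chains beyond depth was not detectable at this depth of sequencing.

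The ligand and its receptor were found in the same cells. Of control cells with a Csf1 UMI, 94.96% (91.7 to 97.2%) had a Csf1r UMI, and of 4E-BP1–cKO cells 88.4% (81.0 to 93.7%) did. Cells without Csf1 had a Csf1r UMI in 88.5% (86.2 to 90.5%) and 86.5% (82.3 to 89.97%) of cases. At 3000 to 6000 UMIs the shares with and without Csf1 were 100 and 97.9% in the control library and 100 and 98.7% in the 4E-BP1–cKO library, so nearly every deep cell had Csf1r either way. Below 1500 UMIs they were 70.8% (48.9 to 87.4%) and 67.5% (60.5 to 74.0%) in the control library, and 35.7% (12.8 to 64.9%) and 68.8% (59.3 to 77.2%) in the 4E-BP1–cKO library, where only 14 cells had Csf1. Intervals with and without Csf1 overlapped in each depth class. At least 3 of the 5 receptor genes were detected in 24.9% of control cells and 22.7% of 4E-BP1–cKO cells, or 55.9 and 56.7% of those with at least 6000 UMIs.

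The other ligands of these receptors were at or near 0. Csf2, which encodes GM-CSF, Il3 and Il5 had 0 UMIs in both libraries. With 3 counts taken as the limit that a count of 0 allows, which is not a Clopper-Pearson bound, up to 0.262% of control cells and 0.674% of 4E-BP1–cKO cells could carry a UMI. Il34, the other CSF1R ligand and in the central nervous system mainly a neuronal product, had 10 UMIs in 8 cells of the control library and 0 UMIs in the other library. Csf3, which encodes G-CSF, had 0 UMIs in the control and 7 in 4E-BP1–cKO cells, all in 1 cell. Among other receptor chains, Kit was at 0, Il3ra and Il5ra had at most 6 UMIs in a library, and Flt3 had 22 and 5.

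Of the 39 other pathway genes listed, 30 had at least 20 UMIs over both libraries, and 1 of them passed 1.5-fold, higher in the 4E-BP1–cKO library. Of all genes tested, 4.32% were higher and 11.3% lower. Among the 7184 genes with at least 100 UMIs, 134 were higher and 360 lower. All of the 30 but Flt3 had that many UMIs. The median log2 difference of the 30 was -0.03, against -0.05 over all genes tested. The gene past the threshold was Socs3, an inducible inhibitor of cytokine receptors including the G-CSF receptor, at 355 CPM in the control library and 557 CPM in the 4E-BP1–cKO library (ratio 1.57, 1.45 to 1.70). Averaged over the strata of depth and ribosomal share, its log2 difference of 0.65 became 0.50, which is under the threshold. By the same average Shc1 (0.67), Flt3 (-0.76), Fyn (-0.67) and Stat5a (-0.80) were past it. In the control and 4E-BP1–cKO libraries, Shc1 had 99 and 46 UMIs and Flt3 22 and 5. Fyn had 245 and 65, and Stat5a 344 and 95. The share of all genes past the threshold by this average is not given here, so these genes have no background. Over all kept cells the 14 adaptors and kinases lay between -0.43 and 0.35 on the log2 scale. The most abundant were Lyn, a Src family kinase, at 1338 and 1132 CPM, and Gab2, a docking protein, at 998 and 958 CPM. Among the other brakes, Inpp5d, which encodes the phosphatase SHIP1, was at 977 and 867 CPM. All 4 STAT genes were within the threshold over all kept cells. Stat3, the main relay of G-CSF signaling, was at 978 and 839 CPM. The STAT5 genes, which GM-CSF signaling uses, were at 71.6 and 54.8 CPM (Stat5a) and at 101 and 98.6 CPM (Stat5b).

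Of the regulators of these receptor genes, Runx1 was at 1319 and 1308 CPM and Irf8, a transcription factor of microglia, at 363 and 355 CPM. Spi1, which encodes PU.1, a factor that Csf1r transcription in macrophages requires, was at 240 CPM in the control library and 341 CPM in the 4E-BP1–cKO library (ratio 1.42, 1.28 to 1.57). Its log2 difference of 0.50 lay under the threshold of 1.5-fold and was 0.49 over the strata.

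The genes whose pattern was most like each member were sought over 19 strata of library, depth and ribosomal share, among 4886 genes with at least 200 UMIs, by Pearson's r of log2(CPM + 10). The strata share libraries and are not independent, so r is a description. For Csf3r they included Mtmr3 (0.93) and Tmem135 (0.92), and 5% of all genes reached 0.72, so that many genes had a like pattern. For Csf1r they were Mydgf (0.80), Myadm (0.77), Tes (0.73), Psmb10 (0.72) and Ccl9 (0.70), each with at most 257 UMIs. Those of Csf1 were 2900097C17Rik (0.78), Egr3 (0.77) and Trpv2 (0.77). The genes most like Csf2ra were Soat1 (0.80), Src (0.75) and Ripk2 (0.74), and those most like Csf2rb were Sh3bp1 (0.82), Wrn (0.79) and Naglu (0.79). The r that 5% of all genes reached was 0.44 for Csf1r, 0.42 for Csf1 and 0.40 for Csf2ra and Csf2rb. Several of the named genes were near the minimum of 200 UMIs, such as Naglu at 208 and 2900097C17Rik at 211. Their r is therefore limited by counting error. Among the 10 pairs of the 5 members other than Csf2rb2, which had too few UMIs, r was highest for Csf1r and Csf1 (0.33) and lowest for Csf1r and Csf3r (-0.51).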

How the data were processed

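The authors sorted microglia, made 1 droplet 3′ library (10x Genomics) per genotype and used Cell Ranger (8.0.1 per the file headers) for alignment to mm10 and counting. The deposited values are UMI counts, not normalized, of each gene in the barcodes called as cells. The annotation release and strand setting are not given in the sources used here. Empty droplets were not analysed here. The study also removed doublets with scDblFinder and integrated the libraries, steps not repeated here. It ended with fewer cells of each genotype than were kept here. The doublet alternative below used another tool and does not stand in for that step. The limits of over 300 genes and less than 5% mitochondrial UMIs left out 69 of 1216 control and 29 of 474 4E-BP1–cKO barcodes. Mitochondrial genes were those named mt-, and 84 ribosomal protein genes were taken by symbol. The ribosomal UMIs are part of the CPM total, so a gene falls slightly in CPM as the ribosomal share rises.

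UMIs were summed over kept cells of a library and scaled to CPM. Log2 differences used a pseudocount of 1 CPM. Thinned shares were exact expected values at 1000 UMIs. Classes were set at 1500, 3000 and 6000 UMIs and at 3 and 8% ribosomal share. The members and all lists were chosen with earlier results of these data known. Named pathway genes were those past 1.5-fold with at least 20 UMIs and 1 or 2 of the most abundant of each role. Spi1, and the genes named for their mean over strata (Shc1, Flt3, Fyn and Stat5a), were added after their values were seen, as were the myelin, astrocyte and neuron genes. Alternatives were mitochondrial and gene limits, removal of the 4 control and 11 4E-BP1–cKO cells that Scrublet (scanpy 1.11.5) called doublets, which the main values keep, TMM factors (edgeR 4.0.16), other totals, other pseudocounts, classes and thinning. The analysis used Python 3.11.15, numpy 2.4.6, scipy 1.17.1 and pandas 2.3.3, and the ratio, its interval and the thinning were tested on simulated data. Gene positions are those of RefSeq on GRCm38.p6. One of the genes of like pattern is not reported here.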

Additional observations from a re-analysis of the deposited data

Results flagged for a closer look

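Csf2rb differed between the libraries in how it went with cell depth. Between cells of at least 3000 UMIs and shallower cells, its log2 difference was 0.65 in the control and -0.76 in the 4E-BP1–cKO library, and neither counting interval held a ratio of 1. The 4E-BP1–cKO interval (0.349 to 0.999) only just left out 1. Its levels showed no steady trend over the 4 depth classes there, at 53.6, 66.8, 23.2 and 42.7 CPM. The difference between the libraries was not tested, and the shallow 4E-BP1–cKO cells gave only 23 of its UMIs. The share of all genes that went opposite ways in the libraries is not given here.

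Barcodes left out by the filters, which the comparisons did not use, also carried UMIs of the members. Of the 69 control barcodes, 65 had 5% or more mitochondrial UMIs, as did 25 of the 29 4E-BP1–cKO barcodes. Their median depth was 993 and 727 UMIs. In the 69 control barcodes there were 289 UMIs of Csf1r, 36 of Csf1, 35 of Csf3r, 12 of Csf2ra, 7 of Csf2rb2 and 6 of Csf2rb. In the 29 4E-BP1–cKO barcodes there were 95 UMIs of Csf1r, 8 of Csf3r and 6 of Csf1, and 3 of each of the others. The Csf1r level in them was 2609.8 CPM (2318 to 2929) in the control library and 2669 CPM (2159 to 3263) in the 4E-BP1–cKO library, above its level in the kept cells of both. In the control library Csf1, at 325 CPM (228 to 450), and Csf2rb2, at 63.2 CPM (25.4 to 130), were also above their kept-cell levels of 160 CPM (149 to 172) and 17.5 CPM (13.9 to 21.7). The Csf1 level of 169 CPM (61.9 to 367) in the 4E-BP1–cKO library was not above that in kept cells. Csf3r, at 316 CPM (220 to 440) and 225 CPM (97.0 to 443), was not above its level in kept cells. The share of all genes above their kept-cell level in these barcodes is not given here. The differences of the members therefore have no background.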

How the results depend on the processing

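No paired analysis was possible because each genotype has 1 library, and for the same reason no replicate could be left out. Among the alternatives run, 0 of the differences past 1.5-fold changed direction, but several fell under the threshold. By ribosomal share, Csf2rb in the 4E-BP1–cKO library went from -0.60 to -0.06 with the boundary at 2%. By depth, Csf2rb2 in the control library went from -0.61 to -0.13 in cells below 3% ribosomal UMIs. The depth difference of Csf2rb went from 0.65 to 0.42 in control cells of 3% or more. In 4E-BP1–cKO cells below 3% it went from -0.76 to -0.49. The depth difference of Csf2ra in the 4E-BP1–cKO library went from -0.70 to -0.49 with the split at the median depth. In its cells of 3% or more it was -0.44. The 9 or 10 alternatives for each member's 4E-BP1–cKO to control difference kept its sign for Csf1r (-0.09 to -0.05), Csf1 (0.06 to 0.25) and Csf3r (-0.23 to -0.06), and not for Csf2ra (-0.05 to 0.06), Csf2rb (-0.24 to 0.10) and Csf2rb2 (-0.45 to 0.17). The value of -0.06 for Csf3r is the mean over strata. The cause of these shifts was not tested.

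Without ribosomal and mitochondrial genes in the total, Csf1r was at 1549.6 CPM in the control library and 1472 CPM in the 4E-BP1–cKO library, and Csf3r at 430 CPM in the control library. As a mean over cells, which weights shallow cells equally, Csf3r was at 446 and 381 CPM and Csf2rb2 at 22.3 CPM in the control library. Without the 5 cells with most Csf1, an alternative added after the data were seen, Csf1 was at 144 CPM in the control library and 150 CPM in the 4E-BP1–cKO library. Leaving out cells with markers of another type was added after the data were seen and moved no level or difference beyond its interval.

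The depth differences (log2, deep minus shallow) moved when the ribosomal share was held. In cells of 3% or more ribosomal UMIs they were -0.12 for Csf1r, 0.58 for Csf1 and -1.44 for Csf2rb2 in the control library, and 0.24 for Csf1r, 0.30 for Csf1 and -0.08 for Csf3r in the 4E-BP1–cKO library. In cells below 3% they were -0.07 for Csf1r, -0.56 for Csf1 and 0.19 for Csf3r in the control library, and -0.42 for Csf1r and -1.09 for Csf1 in the 4E-BP1–cKO library.

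For the ribosomal differences (log2, 3% or more minus below), cells of at least 3000 UMIs alone gave 0.38 for Csf1 in the control library, and 0.41 for Csf1r and 0.96 for Csf1 in the 4E-BP1–cKO library. Cells below 3000 UMIs alone gave 0.29 for Csf1r, -0.76 for Csf1, 0.94 for Csf2rb2 and -0.35 for Csf3r in the control library, and -0.25 for Csf1r and -0.44 for Csf1 in the 4E-BP1–cKO library. A boundary at 2% gave -0.17 and -0.08 for Csf1, and one at 6% gave 0.31 for Csf1r in the control library and -0.11 for Csf1 in the 4E-BP1–cKO library. Without ribosomal and mitochondrial genes in the total, Csf1r was at 0.31 in the control library.

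The share of genes past the threshold between the libraries was 6.88% with at least 100 UMIs, 24.4% with any UMI and 4.57% at 2-fold. Of the 1841 genes past 1.5-fold, 27.6% were higher, and between 15.2% (at 2-fold) and 32.8% (any UMI) under the alternatives. Depth limits Csf2rb and Csf2rb2 most, since they rest on 73 and 33 UMIs in the 4E-BP1–cKO library.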

Other observations

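The cells that carried the ligand gene were described further, after their values were seen and with no test. Among cells of at least 3000 UMIs, those with 2 or more Csf1 UMIs (104 in the control library, 49 in the 4E-BP1–cKO library) were set beside those with none (391 and 134). Of the 2255 other genes with enough UMIs in both libraries, the 10 that were higher by the most in both were Mir155hg, Alcam, Maff, Zc3h12c, Cxcl2, Tnfsf9, Bcl2a1a, Egr3, Pim1 and Cxcl16. Mir155hg, the host gene of the inflammatory microRNA miR-155, was at 169 against 70.9 CPM in the control library and 238 against 112 CPM in the 4E-BP1–cKO library. Alcam, which encodes a cell adhesion molecule, was at 267 against 113 CPM and 281 against 140 CPM. Cxcl2, a chemokine gene, was at 291 against 171 CPM and 849 against 305 CPM.

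In these cells Csf3r was lower, at 331 against 431 CPM in the control library (ratio 0.768, 0.671 to 0.877) and 224 against 398 CPM in the 4E-BP1–cKO library (0.562, 0.441 to 0.709). Csf1r had ratios of 0.973 (0.911 to 1.04) and 0.883 (0.795 to 0.980). The cells with Csf1 were deeper, at a median of 7438 against 4944 UMIs in the control library and 7713 against 5233 in the 4E-BP1–cKO library. Their median ribosomal share was 4.64 against 3.94% and 6.32 against 5.22%. Their median share of UMIs on the immediate early genes was also higher. It was 2.21 against 1.72% in the control library and 2.67 against 2.46% in the 4E-BP1–cKO library. The part of depth, ribosomal share and early-gene share was not tested, either in these differences or in those of the genes listed above. The share of all genes past 1.5-fold between these cells is not given here, so the listed genes have no background.

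The 1 cell with Csf3 UMIs, in the 4E-BP1–cKO library, had 7 of them among 9697 UMIs. It also had 18 Csf1r UMIs and 10 Csf1 UMIs, 0 Csf3r UMIs, 7 of the 9 microglial markers and 0 of the 7 neutrophil markers, and it was not called a doublet. Only 5 4E-BP1–cKO cells had 10 or more Csf1 UMIs.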
